A study of Mus musculus with 6 samples.

Results

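Foxe1, Foxf1, Foxf2, Foxl1, Foxq1, Foxc2, Foxp1, Foxp2, Foxo1 and Foxo3 are genes of the forkhead family of transcription factors. They were taken from the deposited count table by gene symbol, and all 10 were found among its 14228 genes, which hold 30 forkhead genes in all. The list was chosen by the CAF and normal counts of these same libraries, in which Foxe1 was among the genes with the largest differences. The differences of these 10 genes between the groups are therefore given as descriptions. No p-value is given for them, and how many of them passed the test over all genes is stated once, beside the share of all genes that passed, with nothing read from it. The measurements were counts of RNA 3′ ends (MARS-seq) in stomach cells sorted as live and podoplanin-positive after removal of CD31-positive, CD45-positive and EpCAM-positive cells. Cancer-associated fibroblasts (CAF, 3 libraries of 1, 2 and 2 mice) came from triple-transgenic iLgr5;GLI2A mice given tamoxifen in corn oil by gavage for 5 days and then doxycycline chow for 3 weeks, with doxycycline also added to their water on the first 3 of those days. Normal fibroblasts (3 libraries of 1, 1 and 2 mice) came from mice of the same triple-transgenic strain that received corn oil and neither drug. The tamoxifen activates a Cre recombinase driven by Lgr5, a stem cell gene, which lets doxycycline switch on GLI2A, an activated form of the Hedgehog effector GLI2. Mice of both groups were 8 weeks old according to the labels, and since the drugs went only to the CAF mice, effects of drug and of cancer cannot be told apart.

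Forkhead proteins bind DNA through a winged-helix domain and act as activators or repressors. Foxe1 is known for the development of the thyroid and the palate. Foxf1, Foxf2 and Foxl1 mark the mesenchyme of the gut, where they are expressed under the control of Hedgehog signals from the epithelium, while Foxq1 in the mouse stomach belongs to the surface mucous cells. Foxc2 acts in mesenchyme and lymphatic vessels, Foxp1 and Foxp2 are mostly repressors, and Foxo1 and Foxo3 are effectors of insulin signalling that are held out of the nucleus when AKT phosphorylates them.

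The CAF libraries held between 644522 and 6422568 counts each, and the normal libraries between 768420 and 3259644. All 14 genes of a fibroblast marker list had counts in every library. Together they made up 1.20%, 3.08% and 3.88% of all counts in CAF libraries 1, 2 and 3, against 0.532%, 1.03% and 2.09% in normal libraries 1, 2 and 3. The 29 genes in the table from 4 lists of gastric gland cells, from mucous to enteroendocrine cells, took between 0.561% and 0.871% in CAF libraries, against 17.9%, 14.2% and 4.07% in normal libraries 1, 2 and 3. Epcam, the surface protein used to remove epithelial cells, was still counted in every library. Levels are given as CPM, the counts per 1000000 counts of the scaled library size. Fewer cells of a type and less RNA per cell cannot be told apart in bulk libraries.

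Foxe1 had the largest fold difference of the tested forkhead genes with counts in both groups. Foxe1 had 331, 2020 and 1526 counts in CAF libraries 1, 2 and 3, against 9, 2 and 1 counts in normal libraries 1, 2 and 3. These are levels of 484, 279 and 206 CPM in CAF, against 3.67, 2.53 and 1.25 CPM in normal fibroblasts. Every CAF library was thus far above every normal library, and CAF library 1, the shallowest library of all, was the highest. The mean level was 323 ± 144 CPM in CAF, against 2.49 ± 1.21 CPM in normal fibroblasts (SD, n = 3 each), a log2 fold change of 6.85 ± 0.57 (SE) or 115-fold. The ratio of the pooled counts per scaled library size was 85.2, with a 95% interval of 48.7 to 165 that covers counting error only. With any 1 library left out, the fold was between 86.3 and 164.

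Foxe1 lies on mouse chromosome 4 (GRCm38, 46343609 to 46346412, plus strand) and has 1 exon of 2804 bases in the GENCODE annotation. The antisense gene Gm12446 shares 102 of these bases, and its reads could not be told from those of Foxe1 if strand was not used in counting. Of 27 annotated genes next to or inside the Foxe1 locus and the 2 forkhead clusters on chromosomes 8 and 13, 5 were in the table. The nearest of them to Foxe1 was Trmo, a tRNA methyltransferase gene 30093 bases downstream. Trmo had 12, 24 and 35 counts in CAF libraries, against 12, 1 and 2 in normal libraries, and its groups overlapped at 3.31 to 17.6 CPM in CAF against 1.27 to 4.90 CPM in normal fibroblasts. Trmo was below the expression filter and was not tested.

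**Figure D1:**
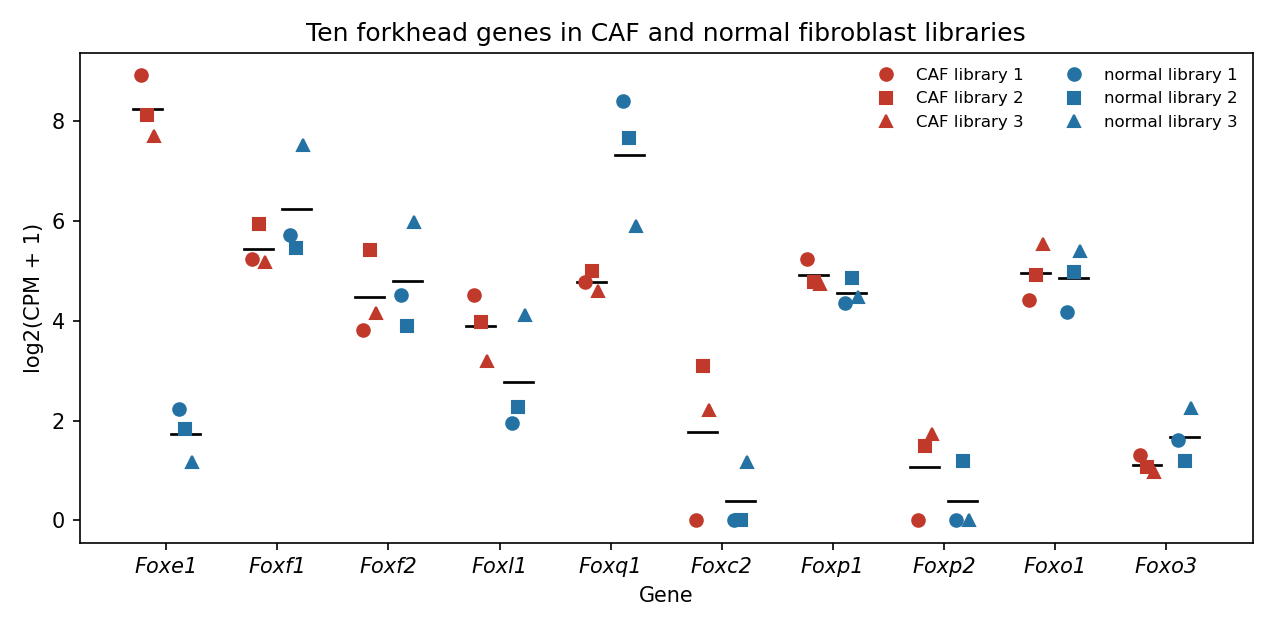
Level of each of the 10 forkhead genes on a log2(CPM + 1) scale in every library, with CAF in red left of normal in blue and a black line at the mean of the log values of each group (n = 3 each). Foxe1 is at 206 to 484 CPM in CAF, against 1.25 to 3.67 CPM in normal libraries, Foxq1 is lower in every CAF library than in any normal one, and the other genes overlap between the groups.

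The counts that fell on the 30 forkhead genes together numbered 757, 5770 and 4863 in CAF libraries, against 2344, 594 and 560 in the normal ones. Foxe1 took 43.7%, 35.0% and 31.4% of them in CAF libraries 1, 2 and 3. Its share was 0.384%, 0.337% and 0.179% in normal libraries 1, 2 and 3. The exact 95% binomial intervals reached down to 30.1% in CAF and up to 1.21% in normal libraries. Foxq1 had the opposite pattern, with 2.38%, 3.88% and 3.52% of forkhead counts in CAF and 35.2%, 26.8% and 8.39% in normal libraries. Without Foxe1 the forkhead genes summed to 623, 518 and 451 CPM in CAF and to 953, 750 and 699 CPM in normal fibroblasts. MARS-seq counts transcript ends, so these values were not divided by gene length, and shares of different genes are not compared with each other.

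**Figure D2:**
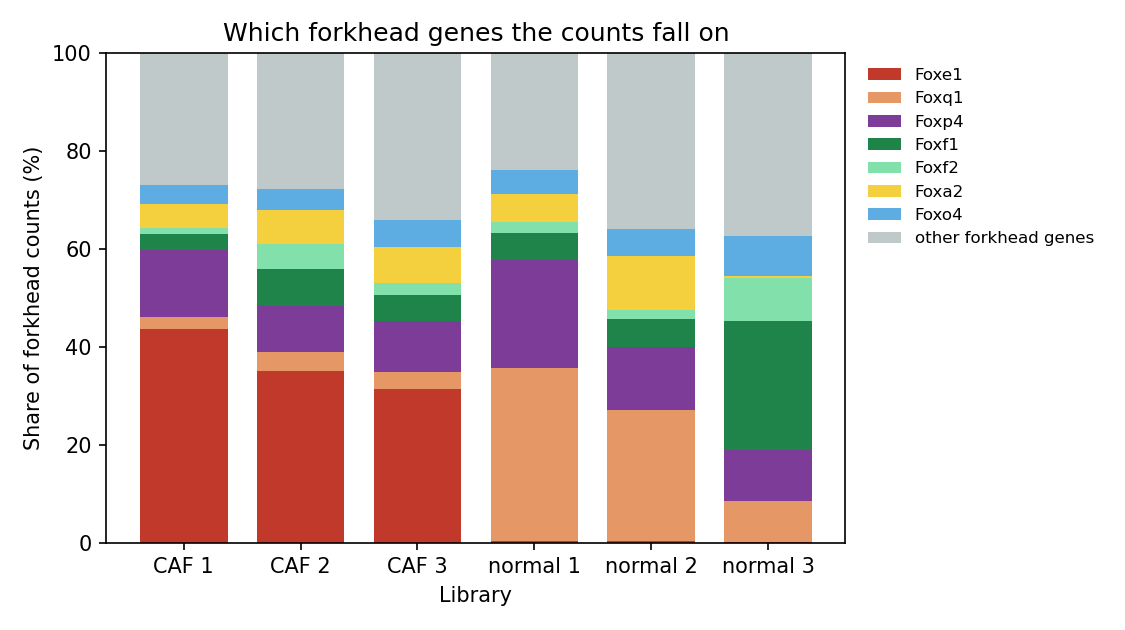
Share in percent of the counts on all 30 forkhead genes that fell on Foxe1, Foxq1, Foxp4, Foxf1, Foxf2, Foxa2, Foxo4 and the remaining forkhead genes in each library. Foxe1 holds 31.4% to 43.7% of the bar in CAF libraries and at most 0.384% in normal libraries, while Foxf1 fills 26.3% of the bar of normal library 3.

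Within the CAF group, the order of Foxe1 was the reverse of the fibroblast list. Per 1000 counts of the fibroblast list there were 42.9, 10.2 and 6.12 counts of Foxe1 in CAF libraries 1, 2 and 3, against 0.519, 0.215 and 0.0623 in normal libraries. A list of 12 general epithelial genes, all of them counted in every library, came to 0.435%, 0.199% and 0.196% of all counts in CAF libraries, against 0.401%, 0.233% and 0.117% in normal libraries. Its order within the CAF group was that of Foxe1, but this was not particular to it. The same order was found for lists of gastric chief cells (0.359%, 0.193% and 0.130%) and of pericytes and smooth muscle (0.327%, 0.259% and 0.126%). A list of enteric glia and Cajal cells had it too (0.0182%, 0.0137% and 0.0104%), and the remaining lists had other orders. Krt18 and Krt8, the most abundant genes of the general epithelial list, were at 453 to 1349 CPM and 262 to 755 CPM in CAF libraries, against 120 to 1593 CPM and 399 to 1653 CPM in the normal ones. Epcam itself was at 233, 127 and 114 CPM in CAF and at 150, 78.5 and 13.8 CPM in normal fibroblasts. Beside these, Foxe1 was at 484, 279 and 206 CPM in CAF libraries 1, 2 and 3 and at 3.67, 2.53 and 1.25 CPM in normal libraries 1, 2 and 3. A squamous forestomach list (11 genes in the table, led by Krt14 and Krt5) came to 0.00900%, 0.0102% and 0.0132% of counts in CAF, against 0.142%, 0.256% and 0.0155% in normal libraries. In that list 2 genes were at 0 in CAF library 1 and 4 were at 0 in normal library 3. The part of epithelial RNA in the Foxe1 level was not tested.

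Foxd1, a forkhead gene of developing kidney stroma, came closest to Foxe1 in its profile among the forkhead genes tested. The likeness was the root mean square difference between log2 CPM profiles over the 6 libraries, each centred on its mean. It was 1.14 for Foxd1, 2.70 for Foxs1 and between 2.95 and 5.37 for the remaining tested forkhead genes, against a median of 3.42 over the 10147 genes compared. Among all genes the closest were Epha8 (0.434), Rgs8 (0.436), H19 (0.493), Igf2 (0.633) and Cort (0.648). They were chosen for likeness to Foxe1 over these same libraries, so sharing its highest library is not a further result. All of them were highest in CAF library 1, where Epha8 reached 121 CPM, Rgs8 135 CPM and Cort 105 CPM. Epha8 and Rgs8, like Foxd1, had 0 counts in all 3 normal libraries, so the distances of all 3 genes depend on the prior count of 2 added before the log. With a prior count of 0.5, 0 of these 5 genes stayed among the closest 5, which were then Kng2, Sla2, Frmpd1, Kcns1 and Fam81a at distances of 0.483 to 0.557. The first 4 of these had 0 counts in normal libraries, and Fam81a had 1.

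Foxf1 and Foxf2, the paired factors of gut mesenchyme, overlapped between the groups and were highest in normal library 3. Foxf1 was at 36.6, 60.0 and 35.0 CPM in CAF libraries 1, 2 and 3, against 51.8, 43.1 and 184 CPM in normal libraries 1, 2 and 3. CAF library 2 lay above the first 2 normal libraries, so the groups overlapped. The log2 fold change of Foxf1 was -1.06 ± 0.59 (SE), without normal library 3 it was -0.17, and against normal library 3 alone it was -1.99. Foxf2 was at 13.2, 42.0 and 16.9 CPM in CAF, against 22.0, 13.9 and 62.5 CPM in normal fibroblasts. Its log2 fold change was -0.39 ± 0.66 (SE), and it turned to 0.38 without normal library 3. The libraries highest in Foxf1 within each group, CAF library 2 and normal library 3, were also the highest in Foxf2. The ratio of Foxf1 to Foxf2 counts was 2.78, 1.43 and 2.07 in CAF and 2.35, 3.09 and 2.94 in normal libraries. Per 1000 counts of the fibroblast list, Foxf1 had 3.24, 2.20 and 1.04 counts in CAF and 7.32, 3.66 and 9.16 counts in normal libraries. On this scale every CAF library was below every normal one for Foxf1. Foxf2 had 1.17, 1.54 and 0.501 counts in CAF and 3.11, 1.18 and 3.11 in normal libraries. Its groups overlapped, as did those of Foxl1. The share of all genes without overlap on this scale was not computed. The fibroblast list is led by Col1a2 and Col3a1. Col3a1 was at 742, 9349 and 9880 CPM in CAF and at 1122, 2053 and 1737 CPM in normal libraries, so the scale itself differs between the groups.

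Foxf1 is on chromosome 8 (121084386 to 121088144), followed by Foxc2 after 28027 bases and by Foxl1 after a further 9045 bases, all on the plus strand. The long non-coding RNA Fendrr starts on the other side of Foxf1, at a distance of 1276 bases, and is known to share its expression in embryonic lateral mesoderm of the mouse. Fendrr was at 30.7, 80.5 and 50.3 CPM in CAF and at 63.2, 55.7 and 295 CPM in normal libraries, with the same highest library in each group as Foxf1. The ratio of Foxf1 to Fendrr counts stayed between 0.696 and 1.19 in CAF and between 0.623 and 0.819 in normal libraries. The log2 fold change of Fendrr, -1.32 ± 0.70 (SE), did not pass the quasi-likelihood test of edgeR, with a Benjamini-Hochberg adjusted p of 0.44, and without normal library 3 it was -0.18. Mthfsd, a gene that lies between Foxf1 and Foxc2, had a mean of 19.4 ± 9.87 CPM in CAF, against 19.2 ± 5.55 CPM in normal fibroblasts (SD, n = 3 each; edgeR adjusted p = 0.972).

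Foxf2 has an entry in the RefSeq promoter table (GRCm38.p6), as do Foxo1, Foxo3 and Foxp1, and the 300 bases from 250 before to 50 after its start are shown because Foxf2 is the member of the Foxf pair with a sequence there (chr13:31625566-31625865, plus strand). Capitals mark matches, on either strand, to 5 short motifs: the forkhead core TGTTTAC, the GLI core GACCACCCA, the TATA box TATAAA, the GC box GGGCGG and the CCAAT box.
Foxf2: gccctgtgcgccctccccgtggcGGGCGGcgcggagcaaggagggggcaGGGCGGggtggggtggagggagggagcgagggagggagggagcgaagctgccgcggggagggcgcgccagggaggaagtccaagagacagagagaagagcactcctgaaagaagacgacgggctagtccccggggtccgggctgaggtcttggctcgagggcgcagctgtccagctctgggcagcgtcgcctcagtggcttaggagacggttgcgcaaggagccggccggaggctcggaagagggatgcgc
The sequence has 2 GC boxes and none of the other motifs, and 71.3% of its bases are G or C, against a median of 52.7% over 32851 promoters. A GC box is found in 35.7% of those promoters, a CCAAT box in 37.4%, a TATA box in 13.6%, the forkhead core in 3.65% and the GLI core in 0.253%. The promoters of Foxo1 and Foxo3 had 5 GC boxes each.

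Foxl1, a marker of the subepithelial cells that support epithelial stem cells, was at 21.9, 14.6 and 8.12 CPM in CAF and at 2.86, 3.80 and 16.3 CPM in normal libraries. All CAF libraries were above normal libraries 1 and 2, while normal library 3 was above CAF libraries 2 and 3. The log2 fold change was 1.00 ± 0.77 (SE). Without normal library 3 it was 2.06, and against that library alone it was -0.15. Foxc2, which lies between Foxf1 and Foxl1, had 0, 55 and 27 counts in CAF and 0, 0 and 1 in normal libraries. The pooled ratio of 21.6 for Foxc2 had a counting interval of 3.77 to 864, and CAF library 1 with its 0 counts overlapped the normal libraries. Foxc2 did not pass the expression filter. An endothelial list (9 genes in the table, led by Egfl7 and Tek) was at 0.00403%, 0.00587% and 0.00646% of counts in CAF, against 0.00399%, 0.00454% and 0.00390% in normal libraries. Of its genes, 4 were at 0 in CAF library 1 and 4 in normal library 3. These were the shallowest libraries of their groups, with 644522 and 768420 counts, which limits what a count of 0 shows. The part of endothelial RNA in the Foxc2 counts was not tested.

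Foxq1, the mucous cell factor, was lower in CAF than in normal fibroblasts. It was at 26.3, 30.9 and 23.1 CPM in CAF libraries 1, 2 and 3, against 337, 201 and 58.8 CPM in normal libraries 1, 2 and 3. Every CAF library was below every normal library, and the normal libraries differed among themselves far more than the CAF libraries. The means were 26.8 ± 3.91 CPM in CAF, against 199 ± 139 CPM in normal fibroblasts (SD, n = 3 each), a log2 fold change of -2.90 ± 0.61 (SE) or 7.44-fold lower. With 1 library left out it lay between -3.39 and -2.31, and against normal library 3 alone it was -1.07. The pit and neck list (12 genes in the table, 0 of them at 0 in any library) came to 0.167%, 0.665% and 0.458% of all counts in CAF libraries, against 4.19%, 3.81% and 2.82% in normal libraries. Its order among the normal libraries was that of Foxq1. Per 1000 counts of that list, Foxq1 had 16.7, 5.24 and 5.82 counts in CAF and 6.03, 4.62 and 2.17 counts in normal libraries, and on this scale the groups overlapped. Tff1 and Tff2, the most abundant genes of the list, encode peptides secreted by mucous cells. Tff1 was at 506, 2891 and 1032 CPM in CAF, against 14945, 9393 and 14842 CPM in normal libraries. Tff2 was at 416, 781 and 1708 CPM in CAF, against 14400, 15195 and 1016 CPM in normal libraries, so its groups overlapped.

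Foxq1 is on chromosome 13 (31556134 to 31560976), 64840 bases before Foxf2, which is followed by Foxc1 after 175230 bases. A530084C06Rik, a gene on the opposite strand, covers the first 3200 of the 4843 bases of Foxq1 and not its 3′ end. Within the shared bases, reads of the genes could not be told apart if strand was not used in counting. Gmds, a GDP-mannose dehydratase gene on the far side of Foxc1, had a mean of 45.9 ± 2.41 CPM in CAF, against 133 ± 83.0 CPM in normal fibroblasts. Its log2 fold change of -1.55 ± 0.48 (SE) did not pass (edgeR adjusted p = 0.171), though every CAF library was below every normal one. Of all genes tested, 9.35% had CAF libraries all below the normal ones. Gmds was called without normal library 3, as were 1193 of all 11888 genes tested there. The non-coding 1700018A04Rik between Foxq1 and Foxf2 had 2, 27 and 16 counts in CAF and 7, 1 and 4 in normal libraries. Among the normal libraries, Foxq1 was lowest and Foxf2 highest in library 3, although the genes are neighbours.

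**Figure D3:**
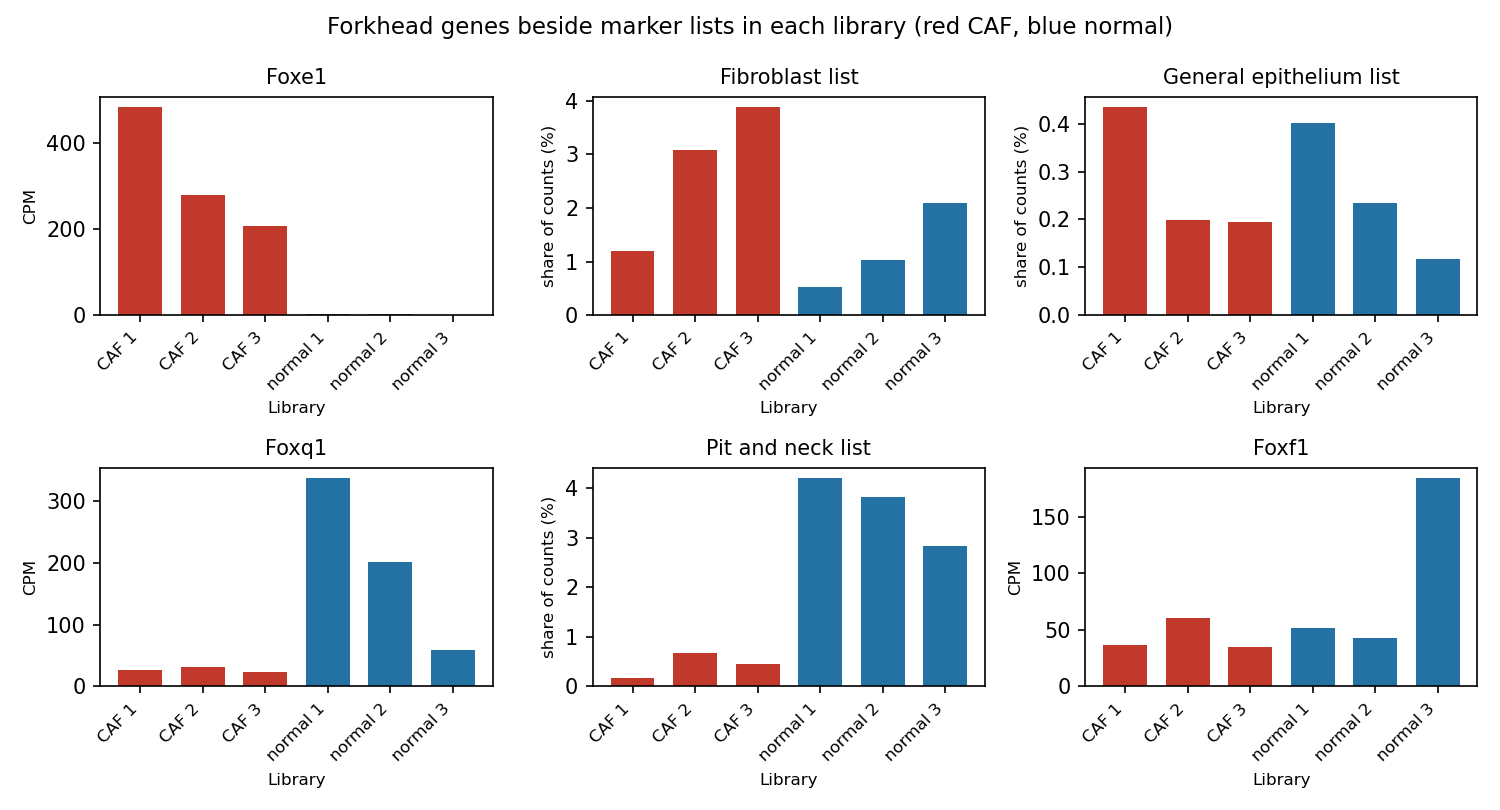
Foxe1, Foxq1 and Foxf1 (CPM) and the share of counts in percent on the fibroblast, general epithelium and pit and neck lists, as 1 bar per library, with CAF in red left of normal in blue. CAF library 1 has the highest Foxe1 bar and the lowest fibroblast share of its group, the pit and neck share is at most 0.665% in CAF and at least 2.82% in normal libraries, and Foxf1 stands out in normal library 3 at 184 CPM.

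Foxp1 was at 36.6, 26.5 and 25.8 CPM in CAF and at 19.6, 27.9 and 21.3 CPM in normal libraries. Only normal library 2 reached into the CAF range, and the log2 fold change was 0.36 ± 0.35 (SE). Foxp2 was near the limit of counting, with 0, 13 and 17 counts in CAF and 0, 1 and 0 in normal libraries. The pooled ratio of 7.91 for Foxp2 had a counting interval of 1.31 to 323. Foxo1 was at 20.5, 29.3 and 45.3 CPM in CAF and at 17.1, 30.4 and 41.3 CPM in normal libraries, so that the spread within each group was larger than the log2 fold change of 0.15 ± 0.46 (SE). The antisense gene Gm20402 shares 674 exonic bases with Foxo1. Foxo3 had 1, 8 and 7 counts in CAF and 5, 1 and 3 in normal libraries, too few to pass the filter. The long genes Foxp1 (chromosome 6, 98925338 to 99522721, minus strand) and Foxp2 (chromosome 6, 14901349 to 15441977, plus strand) are on 1 chromosome, Foxo1 is on chromosome 3 (52268336 to 52353221, plus strand) and Foxo3 on chromosome 10 (42181841 to 42276755, minus strand).

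Of the 10 genes, 7 passed the expression filter, and Foxc2, Foxp2 and Foxo3 did not. The test over all 10148 genes called 1 of the 7, Foxe1, at an adjusted p under 0.05 (edgeR), where 1.10% of all tested genes were called and 0.897% were called higher in CAF. DESeq2 called Foxe1 and Foxq1, where it called 7.81% of all genes, and limma-voom called Foxe1, where it called 0.641%. With CAF libraries all above the normal ones there was Foxe1 among the 7, where 10.6% of all tested genes were so, and with CAF libraries all below there was Foxq1, where 9.35% were so. The choice of the genes rested on this comparison, so nothing is read from these counts. Foxe1 was not called without normal library 1, where 0 of 8725 tested genes were called, or without normal library 2, where 6 of 11683 were. Of the 10 genes, 2 had in the authors' deposited table an adjusted p under 0.05, Foxe1 with a log2 fold change of 6.86 and Foxq1 with one of -2.91, where 6.37% of all listed genes did.

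Of the 20 forkhead genes outside the list, 14 were tested and 0 were called by edgeR, 5 with a positive and 9 with a negative log2 fold change, with a median of -0.13 against 0.06 over all tested genes. At an unadjusted p under 0.05 there were 3 of 14, where 15.3% of all tested genes passed. DESeq2 called 2, where it called 7.81% of all genes, and limma-voom called 0, where it called 0.641%. Foxd1, Foxd2 and Foxa3, or 3 of the 20, had an adjusted p under 0.05 in the authors' deposited table, where 6.37% of all listed genes did. Without normal library 3, edgeR called 3 of the 14, Foxa3, Foxa1 and Foxs1, where it called 1193 of all 11888 tested genes. The most abundant over all libraries did not pass. Foxp4, a paralogue of Foxp1, had a mean of 97.8 ± 46.0 CPM in CAF, against 127 ± 74.7 CPM in normal fibroblasts (edgeR adjusted p = 0.776). Foxa2, a pioneer factor of endoderm, was at 47.2 to 54.2 CPM in CAF and at 53.9, 83.6 and 2.50 CPM in normal libraries (edgeR adjusted p = 0.965). Against normal library 3 alone, its log2 fold change was 4.41. Foxo4, a further FOXO factor, had a mean of 38.0 ± 5.24 CPM in CAF, against 48.9 ± 7.98 CPM in normal fibroblasts, and Foxk1 had a mean of 37.7 ± 10.4 CPM in CAF, against 37.1 ± 24.4 CPM in normal fibroblasts (edgeR adjusted p = 0.647 and 0.998).

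Foxd1 had 44, 64 and 69 counts in CAF libraries 1, 2 and 3 and 0 counts in all 3 normal libraries. In CAF these are 64.4, 8.83 and 9.33 CPM, highest in CAF library 1 as for Foxe1. Against the level of 3 counts over the normal group, 0.743 CPM, Foxd1 was at least 37.1-fold higher, or at least 12.2-fold higher without CAF library 1 and at least 14.6-fold higher without normal library 1. It did not pass (edgeR adjusted p = 0.104). Foxd2, a close relative below the filter, had 15, 23 and 37 counts in CAF and 0, 0 and 1 in normal libraries. Its pooled ratio was 19.8, with a counting interval of 3.44 to 791. Foxb1 had 2, 10 and 6 counts in CAF libraries and Foxc1 had 0, 16 and 11, and both had 0 counts in the 3 normal libraries. Foxs1, a forkhead gene of perivascular cells, was at 10.2, 12.6 and 10.8 CPM in CAF and at 1.63, 1.27 and 8.75 CPM in normal libraries (edgeR adjusted p = 0.346). A list of pericyte and smooth muscle genes, all 12 of them counted in every library and led by Tagln and Actg2, was at 0.327%, 0.259% and 0.126% of counts in CAF, against 0.0968%, 0.0633% and 0.148% in normal libraries, and its part in the Foxs1 level was not tested. The groups of 2 of the 14 tested genes, Foxd1 and Foxs1, did not overlap with CAF higher, where 10.6% of all tested genes did so. With 0 counts in normal libraries, Foxd1 could pass the expression filter only through the CAF libraries. Its lack of overlap was thus fixed by the filter, and nothing is read from it.

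The endodermal factors Foxa3 and Foxa1 had the largest negative fold changes of these genes, and neither passed. Foxa3 had 0, 18 and 11 counts in CAF libraries, or at most 2.48 CPM, against 33.5, 26.6 and 12.5 CPM in normal libraries. Its log2 fold change of -3.81 ± 0.69 (SE) did not pass (edgeR adjusted p = 0.0535). Foxa1 was at 2.93 to 5.68 CPM in CAF and at 19.6, 74.7 and 1.25 CPM in normal libraries (log2 fold change -2.80 ± 1.05 SE, with an edgeR adjusted p of 0.254). Normal library 3 was below all CAF libraries in Foxa1, and with normal library 3 alone as the control the log2 fold change was 1.88. Without normal library 2 it was -1.36. Per 1000 counts of the pit and neck list, Foxa3 had 0, 0.421 and 0.374 counts in CAF and 0.600, 0.611 and 0.461 in normal libraries. The gland lists were at 0.561% to 0.871% of counts in CAF, against 4.07% to 17.9% in normal libraries. The part of gland RNA in the low levels of Foxq1 and Foxa3 was not tested.

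The same promoter table holds the starts of Foxd1, which had 0 counts in normal libraries (chr13:98353995-98354294, plus strand), and of Foxa3, the tested forkhead gene with the most negative fold change (chr7:19023490-19023789, minus strand), with capitals as above.
Foxd1: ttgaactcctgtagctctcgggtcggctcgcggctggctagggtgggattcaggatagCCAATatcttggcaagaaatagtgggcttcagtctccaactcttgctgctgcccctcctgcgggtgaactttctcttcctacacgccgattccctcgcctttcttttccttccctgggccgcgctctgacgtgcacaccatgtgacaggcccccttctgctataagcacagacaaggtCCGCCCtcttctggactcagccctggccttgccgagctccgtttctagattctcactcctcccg
Foxa3: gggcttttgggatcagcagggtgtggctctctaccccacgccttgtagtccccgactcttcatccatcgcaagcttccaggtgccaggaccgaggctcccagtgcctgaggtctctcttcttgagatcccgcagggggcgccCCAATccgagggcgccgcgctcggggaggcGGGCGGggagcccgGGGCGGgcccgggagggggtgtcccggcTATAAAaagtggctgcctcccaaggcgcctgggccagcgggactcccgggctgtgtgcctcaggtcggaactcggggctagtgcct
Foxd1 has 1 CCAAT box and 1 GC box at 57.7% G and C. Foxa3 has 1 CCAAT box, 2 GC boxes and 1 TATA box at 69.0% G and C, and neither has the forkhead or the GLI core.

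**Figure D4:**
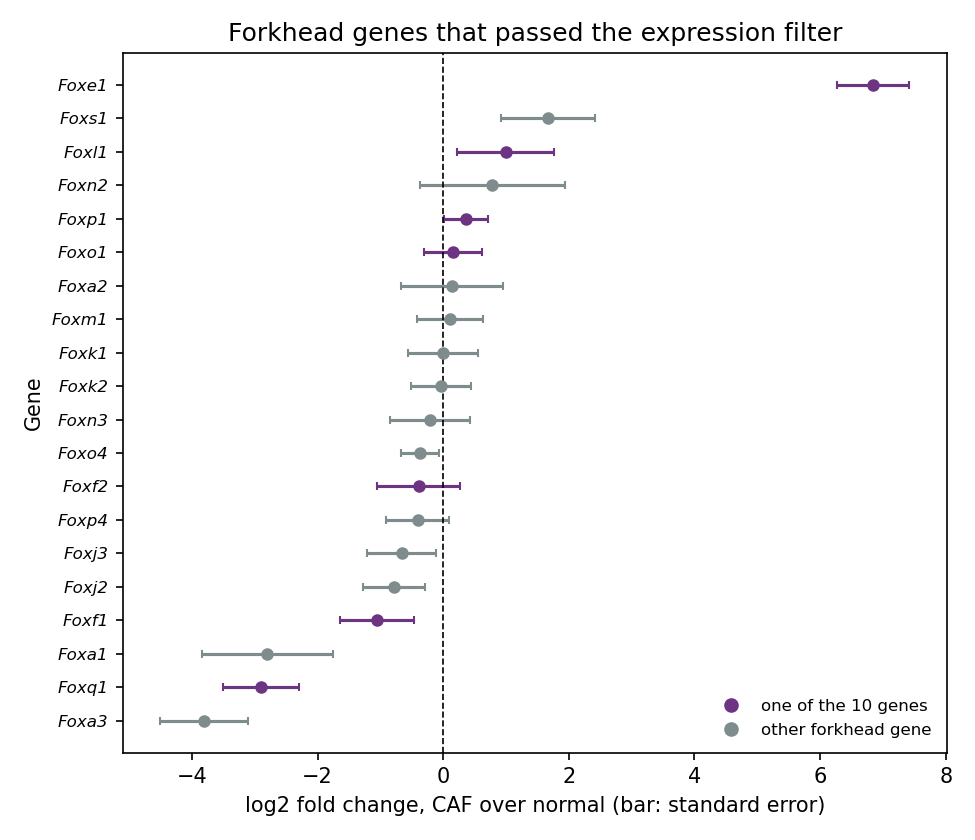
Log2 fold change of CAF over normal with its standard error for the forkhead genes that passed the expression filter and had counts in both groups, with purple for the 10 genes described and grey for the others (n = 3 libraries in each group). Foxe1 stands at 6.85, all others lie between -3.81 and 1.67, and Foxd1 is left out because it had 0 counts in normal libraries.

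Genes that act with these factors were described from 6 lists with 95 genes, of which 84 were in the table and 71 were tested. By edgeR 0 of the 71 were called, with 11 at an unadjusted p under 0.05, or 15.5% against 15.3% of all tested genes. DESeq2 called 5 (Ptch1, Gas1, Akt2, Iyd and Slc5a5), where it called 7.81% of all genes, and limma-voom called 0. Without normal library 3, edgeR called 9 of the listed genes, where it called 1193 of all 11888 tested genes. Without CAF library 1 it called 1 of them, where it called 49 of all 11823 tested genes. In the Hedgehog list, upstream of Foxf1, Foxf2 and Foxl1 in gut mesenchyme, 9 of 12 tested genes had a positive fold change. Of all 10148 tested genes, 5469 did. The median log2 fold change of the list was 0.67, against 0.06 over all tested genes. A negative fold change was found for 3, among them Gli1 (92.1 ± 34.3 CPM in CAF, against 102 ± 95.5 CPM in normal fibroblasts, log2 fold change -0.15). The ligand gene Ihh, not tested, had 3, 12 and 12 counts in CAF and 176, 26 and 0 in normal libraries. Ptch1, the Hedgehog receptor and target, had a mean of 217 ± 51.0 CPM in CAF, against 67.2 ± 14.1 CPM in normal fibroblasts, and the co-receptor Gas1 had a mean of 235 ± 96.8 CPM in CAF, against 75.3 ± 31.1 CPM in normal fibroblasts. Neither passed (edgeR adjusted p = 0.0617 and 0.12), though Ptch1 was called without normal library 3. The list of subepithelial niche genes around Foxl1 had a median log2 fold change of -0.53 over 10 tested genes, 4 positive and 6 negative. Bmp5, a BMP ligand, was at 42.4, 52.9 and 18.4 CPM in CAF, against 49.0, 51.9 and 395 CPM in normal libraries. Its log2 fold change was -2.13 ± 0.88 (SE), and without normal library 3 it was -0.49. Wnt4, a Wnt ligand, had a mean of 14.0 ± 3.87 CPM in CAF, against 34.5 ± 13.6 CPM in normal fibroblasts. Neither Bmp5 nor Wnt4 passed (edgeR adjusted p = 0.305 and 0.231).

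Genes known to act with Foxe1 in the thyroid were near the limit of counting or had negative fold changes. Of 12 listed, 8 were in the table and 2 were tested, both with a negative fold change that did not pass. Iyd, an iodotyrosine deiodinase, had 0, 12 and 24 counts in CAF and 102, 17 and 12 counts in normal libraries (log2 fold change -3.64 ± 0.72 SE, with an edgeR adjusted p of 0.0621). It was called without normal library 3, as were 1193 of all 11888 genes tested there. Slc5a5, the sodium-iodide symporter, which is also known in gastric mucosa, had 1, 19 and 16 counts in CAF and 35, 5 and 18 in normal libraries (edgeR adjusted p = 0.0841). The 6 untested genes were few in counts and went either way. Tg, or thyroglobulin, had 3, 8 and 1 counts in CAF and 2, 0 and 0 in normal libraries. Hhex had 0, 14 and 9 counts in CAF and 1, 0 and 0 in normal libraries, and Tshr, the receptor for thyrotropin, had 0, 8 and 3 counts in CAF and 0 in every normal library. Dio1, a deiodinase, had 0, 0 and 3 counts in CAF and 14, 3 and 0 in normal libraries. Duox2, an oxidase that makes hydrogen peroxide, had 0, 7 and 11 counts in CAF and 14, 1 and 4 in normal libraries, and its maturation factor Duoxa2 had 3, 10 and 5 counts in CAF and 19, 1 and 2 in normal libraries. In the list of palate and foregut partners of Foxe1 and Foxf2, the median log2 fold change was 0.44 over 9 tested genes, 5 positive and 4 negative. Msx1, a homeobox factor of the palate, had a mean of 17.0 ± 1.12 CPM in CAF, against 7.60 ± 4.99 CPM in normal fibroblasts, and Osr2, another palate factor, had a mean of 24.7 ± 9.09 CPM in CAF, against 11.6 ± 8.34 CPM in normal fibroblasts (edgeR adjusted p = 0.382 and 0.401).

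The list of FOXO targets, genes known to respond to Foxo1 and Foxo3, had a median log2 fold change of 0.15 over 22 tested genes, 15 positive and 7 negative. Klf2, a Krüppel-like factor, was at 139 to 200.4 CPM in CAF, against 233 to 538 CPM in normal libraries, and Cat, or catalase, had a mean of 22.0 ± 11.5 CPM in CAF, against 58.1 ± 20.2 CPM in normal fibroblasts. Neither passed (edgeR adjusted p = 0.219 and 0.252). These 2 of the 22 had every CAF library below every normal one, where 9.35% of all tested genes did. The list of FOXO kinases and regulators had a median log2 fold change of 0.21 over 16 tested genes, 9 positive and 7 negative. Akt2, a kinase that phosphorylates FOXO proteins, had a mean of 3.62 ± 2.18 CPM in CAF, against 16.4 ± 6.77 CPM in normal fibroblasts, and Pik3r1, a regulatory subunit of PI3-kinase, had a mean of 20.7 ± 5.00 CPM in CAF, against 36.7 ± 14.2 CPM in normal fibroblasts (edgeR adjusted p = 0.146 and 0.453).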

How the data were processed

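The deposited table gives raw counts per gene symbol for 6 libraries, made by the authors, and these counts were the values analysed. Per the submitters' processing notes, cutadapt, STAR, HTSeq and DESeq2 were used on build mm10. Versions, annotation, strand and treatment of molecular identifiers were not given in the sources used here. Per the file headers, the table also holds a normalized signal and regularized log2 values, not used here, and the authors' own log2 fold change and adjusted p-value. The 10 genes and all gene lists were chosen with earlier results of these data known.

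Counts were fitted over the whole table with edgeR 4.0.16 in R 4.3.3: filterByExpr kept 10148 genes, edgeR's TMM factors scaled the library sizes, and the quasi-likelihood test compared CAF with normal, with Benjamini-Hochberg adjustment and a threshold of 0.05. Standard errors derive from the F statistic. The fit was also run on counts simulated with the same spread between libraries (dispersion 0.214) for every gene. This setting is simpler than the data, so the run does not show how many differences the fit misses here. Each library came from other mice (1 or 2), so p-values measure the spread between such libraries. Intervals cover counting error only. Alternatives were DESeq2 1.42.0, limma-voom (limma 3.58.1), other scalings and filters, libraries left out and the number of mice as a covariate. Beyond the 10 genes, the text names the 4 forkhead genes of largest mean CPM and the 4 of largest fold change, up to 4 called genes of each list or else its 2 of smallest p, every neighbouring gene in the table, the 2 most abundant genes of a marker list set beside a member and the 5 profiles closest to Foxe1. Foxd2, Foxb1, Foxc1, Gli1, Ihh and the 6 untested thyroid genes were named after their values were seen. Gene positions are from GENCODE M21 (GRCm38, the same assembly as mm10). A planned comparison of protein domains was not run.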

Additional observations from a re-analysis of the deposited data

How the results depend on the processing

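Foxe1 kept a positive log2 fold change in all 15 alternatives, from 6.43 to 7.36 with 1 library left out, and it was 8.01 without normal libraries 1 and 2, where the control is a single library assumed to vary like the CAF libraries. The count of called genes among the other forkhead genes, 0, became 2 with DESeq2 and ranged from 0 to 3 with 1 library left out. For the pathway lists it became 5 with DESeq2 and ranged from 0 to 9, and for the neighbouring genes it became 1 with DESeq2 and ranged from 0 to 1. Of all tested genes, 112 were called, against 792 with DESeq2, 65 with limma-voom, 0 without normal library 1 and without normal libraries 1 and 2, 4 to 49 without normal library 2 or a CAF library, and 1193 without normal library 3, where the list counts above were highest. The cause was not tested. Of the 5 profiles closest to Foxe1, 0 were shared with a prior count of 0.5. Genes near no difference changed sign. Foxk1 (-0.01) was at 0.0583 with limma-voom, 0.0026 with upper-quartile factors, 0.0099 without a filter, 0.032 with at least 10 counts in 3 libraries, and from -0.43 to 0.38 with 1 library left out. Foxp4 ranged from -0.85 to 0.16, Foxa2 from -0.46 to 0.78 and Mthfsd from -0.49 to 0.18 with 1 library left out. Without normal libraries 1 and 2, Foxp4 was at 0.45, Foxa1 at 1.88 and Foxa2 at 4.41 (1.34 with a covariate for mouse number, against 0.14 for all libraries). No paired analysis was possible because the labels give no replicate numbers that the groups share. Depth limits Foxc2, Foxp2, Foxo3 and Foxd2, which had 1 to 9 counts over the normal libraries.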
